A study of Ovis aries with 22 samples.

Results

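ASIP, agouti signalling protein, was measured by 2 probes of a sheep oligonucleotide array in the septum of the heart, and both probes were bright on 20 of the 22 arrays and near the local background on the other two. The gene was chosen by its measured signal, that is, by its brightness in heart and its all-or-none distribution over the arrays, so its levels are given as a description with no test. Its members were the non-control spots that the array files name ASIP, 2 of 15008 probes, which stand for 1 of 14353 features (a feature is a gene or transcript name on the array).

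ASIP is a small secreted protein that binds melanocortin receptors and blocks them. On melanocytes it opposes alpha-melanocyte-stimulating hormone at MC1R, which lowers cyclic AMP and moves pigment synthesis from dark eumelanin to yellow or pale pheomelanin. In many mammals its transcript is found mainly in skin. In sheep, ASIP is known as a coat colour gene, and a tandem duplication of the stretch that holds ASIP, AHCY and the promoter of ITCH is known from white fleeced breeds, in which ASIP transcripts have been found in many tissues.

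The study measured total RNA of the heart septum, the wall between the ventricles, with 1 Cy3-labelled array for each animal, across the time around birth. The 3 groups were 6 fetuses of 130 gestational days, 8 term fetuses (145 days) and 8 naturally born lambs aged 14 days. No ewe, fetus or lamb received a treatment. Breed, coat colour and ASIP genotype, and whether fetuses shared a ewe, are not given in the labels used here, so p-values measure only the spread between these samples. The septum holds several cell types, and in bulk RNA fewer cells of a type and less RNA per cell cannot be told apart.

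Both probes carry the same sheep ASIP transcript in the array files (RefSeq NM_001134303), and the files give them no chromosome position. In a later RefSeq sheep assembly, ARS-UI_Ramb_v3.0, ASIP lies on chromosome 13 between EIF2S2 and RALY on one side and AHCY and ITCH on the other. The brighter probe starts at base 951 of the transcript and the dimmer one at base 577, as the array files number them, so the pair reads separate stretches. They sit apart on the slide, at row 89, column 12 and row 93, column 34. The sequence of the dimmer probe is shown because it is the part of the transcript whose signal fell to the local background in both dim animals. It is 60 bases long, with 41.7% G and C, in lower case as no part is marked:

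ASIP probe starting at base 577: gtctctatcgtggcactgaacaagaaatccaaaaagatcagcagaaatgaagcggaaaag

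The raw signal of the brighter probe (mean pixel brightness of the spot, in scanner units) was 31299 at its lowest, 41028 at its median and 44775 at its highest in the 6 fetuses at 130 days. At term the lowest was 26234, the median 32169 and the highest 42846 in 8 fetuses. In lambs 1 to 8 it was 24691, 25766, 88.5, 24575, 44020, 9509, 9696 and 79.5. Thus lambs 3 and 8 were dim, lambs 1, 2, 4, 6 and 7 were bright but below the lowest fetus, and lamb 5 was within the fetal range.

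The local background around that spot lay between 42 and 58 on all 22 arrays. Lamb 3 had a local background of 51 and lamb 8 of 43, which put the raw signal at 1.74 times and 1.85 times the background. On the other 20 arrays the raw signal was 170.1 to 844.8 times its background. No array had a ratio between these ranges.

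**Figure D1:**
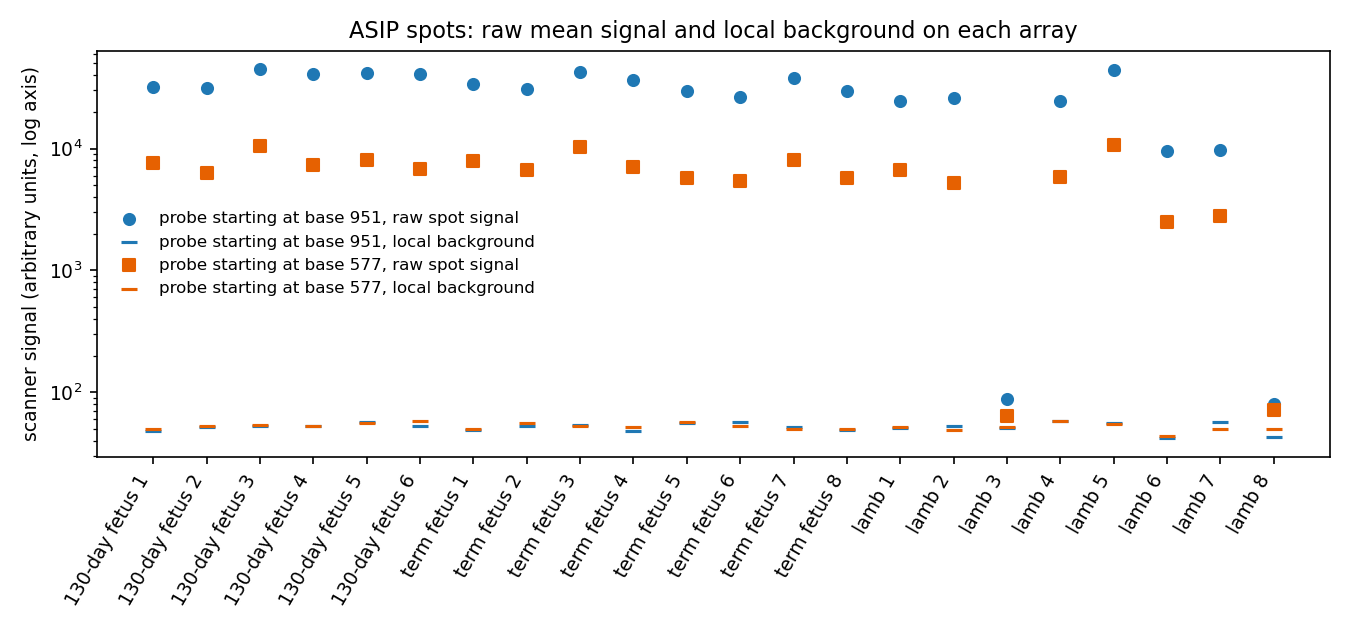
Raw spot signal of the 2 ASIP probes (blue circles and orange squares) and the local background beside each spot (dashes) on a log axis in arbitrary scanner units, for each of the 22 arrays in order of group. The spots of lambs 3 and 8 lie just above their backgrounds of 51 and 43 for the brighter probe, while the other 20 arrays lie at 170.1 times background or more.

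The dimmer probe gave the same division of the arrays. Its raw signal was 6311 to 10521 in fetuses at 130 days and 5404 to 10371 at term. In lambs 1 to 8 it was 6697, 5214, 63.9, 5794, 10790, 2509, 2809 and 72.0. Lambs 3 and 8 were at 1.24 and 1.44 times their local background, and the scanner software's test of the spot against its background gave p-values of 0.421 and 0.139 there. These 2 values compare pixels of 1 spot with pixels around it and are not a test across animals. The brighter probe differed here: its spot passed the software's flag for a positive and significant signal in both lamb 3 and lamb 8. The dimmer probe passed that flag in neither of them.

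Values between arrays were compared as the log2 of the processed signal (background-subtracted by the scanner software) minus the array's own 75th percentile over non-control spots, so 0 marks the 75th percentile of that array. On this scale the brighter probe was 4.83 at its lowest, 5.13 at its median and 5.27 at its highest at 130 days (mean 5.09 ± 0.15, SD, n = 6). At term it was 5.09, 5.35 and 5.68 (mean 5.38 ± 0.18, SD, n = 8). In lambs 1 to 8 it was 4.58, 5.22, -4.70, 4.35, 4.89, 4.08, 4.08 and -5.51, with a median of 4.21. The ranges at 130 days and at term overlapped, and of the 6 bright lambs, lambs 2 and 5 lay within the fetal range and the other four below it.

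The order of the 2 fetal medians depended on the scaling. Term was above 130 days on the percentile scale, with normexp background correction (5.17 against 5.02), with quantile normalization (5.25 against 5.16) and in the authors' deposited values set to the same percentile (4.32 against 4.26). It was below 130 days in the processed signal without scaling between arrays (median 34451 against 41043). In each of these the lamb median was the lowest of the 3.

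The dimmer probe had a level of 2.28, 2.50 and 2.89 at 130 days (lowest, median and highest, log2 relative to the 75th percentile) and 2.55, 2.81 and 3.33 at term. In lambs 1 to 8 its level was 2.35, 2.57, -8.19, 2.05, 2.59, 1.81, 1.94 and -7.08, with a median of 2.00. The ranges at 130 days and at term overlapped here too. Of the bright lambs, those at 2.05, 1.81 and 1.94 lay below every fetus, and the others lay within the fetal range. The same 2 lambs lay far below all the other arrays. On the 20 arrays where both probes were well above background, the difference between the probes stayed between 2.14 and 2.87 log2 (median 2.43, SD 0.20).

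**Figure D2:**
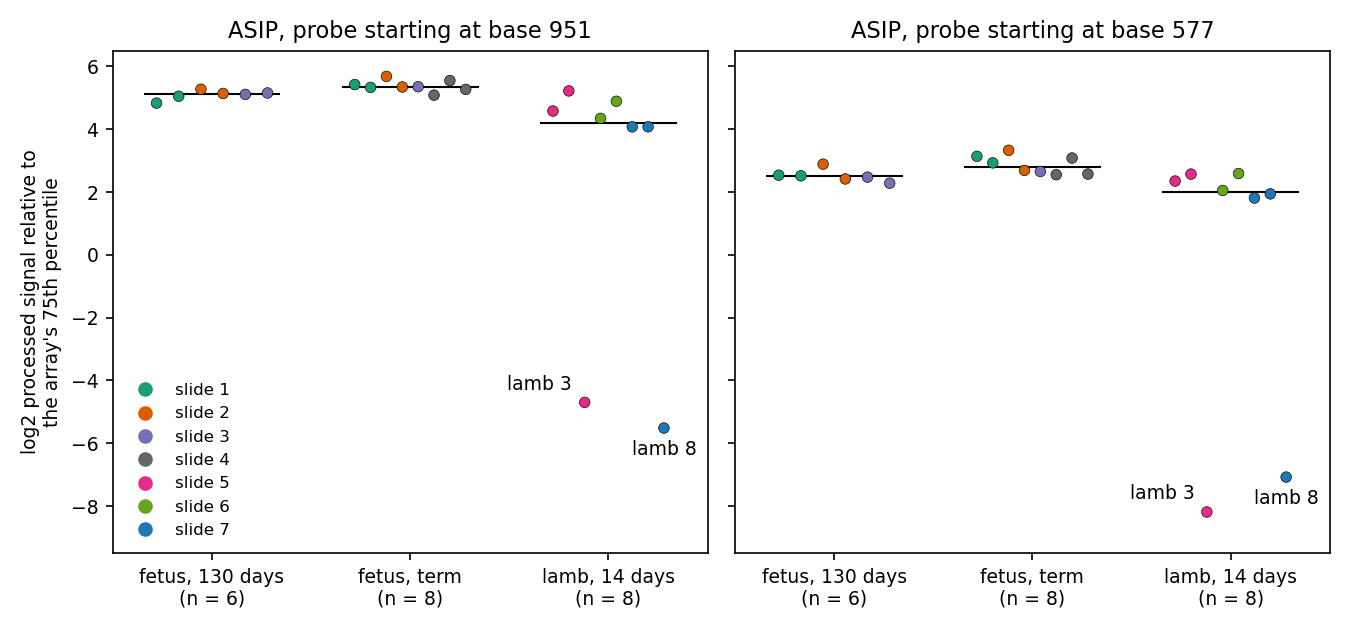
Level of both ASIP probes on each of the 22 arrays, as log2 processed signal minus the 75th percentile of the array, by group, with points coloured by slide and the group median as a line. All 14 fetuses and 6 lambs lie at 4.08 or higher for the brighter probe, and lambs 3 and 8 lie at -4.70 and -5.51.

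The size of the step between the dim and the other lambs was bounded by the background. On the percentile scale, for the brighter probe, lamb 3 was 438-fold lower than lamb 6, the lowest of the other lambs, and lamb 8 was at least 474-fold lower. For the dimmer probe the bounds were at least 207-fold for lamb 3 and at least 98.6-fold for lamb 8. A bound was taken against the lowest signal that counted as well above background on the dim array, where the probe itself was not well above it. The folds depended on the scaling: between the measured values of the brighter probe they were 133-fold for lamb 3 and 151-fold for lamb 8 in the authors' values, and 117-fold and 81.9-fold with normexp, which adds an offset of 50 to every signal. For the dimmer probe they were 58.8-fold and 63.6-fold in the authors' values and 43.4-fold and 26.3-fold with normexp.

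The scanner's flag for spots well above background divided the arrays almost in the same way. For the brighter probe 6 of 6 spots at 130 days, 8 of 8 at term and 7 of 8 in lambs were well above background, since lamb 3 passed with a processed signal of 26.3 and lamb 8 did not with 9.08. The dimmer probe was well above background on 6 of 6, 8 of 8 and 6 of 8 arrays, with processed signals of 2.34 in lamb 3 and 3.07 in lamb 8. The flag for a positive and significant signal passed the brighter probe on all 22 arrays and the dimmer probe on 20. No ASIP spot was flagged as an outlier or as saturated on any of the 22 arrays. The software read the brighter probe from its low-gain scan on 18 arrays, which is where very bright spots are measured.

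The software's error model put the error of the processed signal at 10% on the 20 bright arrays for the brighter probe. It was 15.2% in lamb 3 and 43.0% in lamb 8. For the dimmer probe the error was 98.3% in lamb 3 and 98.5% in lamb 8, nearly the size of the signal. The order of the 2 dim lambs has no meaning for that probe.

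The authors' deposited table, which holds their own log2 values, showed the same 2 animals apart. In it the brighter probe was 14.88 to 15.20 at 130 days and 14.91 to 15.40 at term. Among lambs it was 13.51 to 14.72 in 6 animals, 6.46 in lamb 3 and 6.25 in lamb 8. For the dimmer probe the authors' deposited table gave 5.90 in lamb 3 and 5.77 in lamb 8, against 11.78 to 12.70 in the other 6 lambs.

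Each slide carries several arrays. Slides 1 to 3 held fetuses of both ages, slide 4 held 3 fetuses at term, and lambs lay on slides 5 to 7. The 4 fetal slides shared 1 scan date and the lamb slides had 3 others, so age, slide and scan date cannot be told apart for a difference between lambs and fetuses. The 2 dim arrays were on different slides with different scan dates. Lamb 3 at -4.70 shared slide 5 with lambs 1 and 2, which were bright at 4.58 and 5.22, and lamb 8 at -5.51 shared slide 7 with lambs 6 and 7, bright at 4.08 each. Within slides 1 to 4 the brighter probe ranged from 4.83 to 5.68. On slide 6, lambs 4 and 5 were at 4.35 and 4.89.

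The array of lamb 8 was the dimmest of all 22, with 10193 spots well above background and a 75th percentile of 8.70 log2, while the other arrays reached up to 13061 such spots. The array of lamb 3 had 11641 spots well above background, inside the range of the other lambs (up to 12202), and a 75th percentile of 9.41 log2. Both values were below those of every fetal array, where the lowest were 11706 spots and 9.56 log2. Spike-in controls averaged 8.30 log2 in lamb 3, the lowest of the lambs, and 10.06 in lamb 8, the highest, and 6.35 to 7.26 in fetuses. Their part in the ASIP levels was not tested.

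The size of the ASIP step was set beside the same measure for every other feature, the largest gap between neighbours when the 22 arrays are sorted by log2 level. For ASIP this gap was 8.77 for the brighter probe and 8.89 for the dimmer one, with lambs 3 and 8 below it. Among 12248 other features the median gap was 0.40, 229 features had a gap over 2 and 6 had a gap over 5. One of them, the unnamed transcript EE830355, had a larger gap (9.37), with only lamb 1 high, at 6.91, and the other 21 arrays at -2.46 or below.

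**Figure D3:**
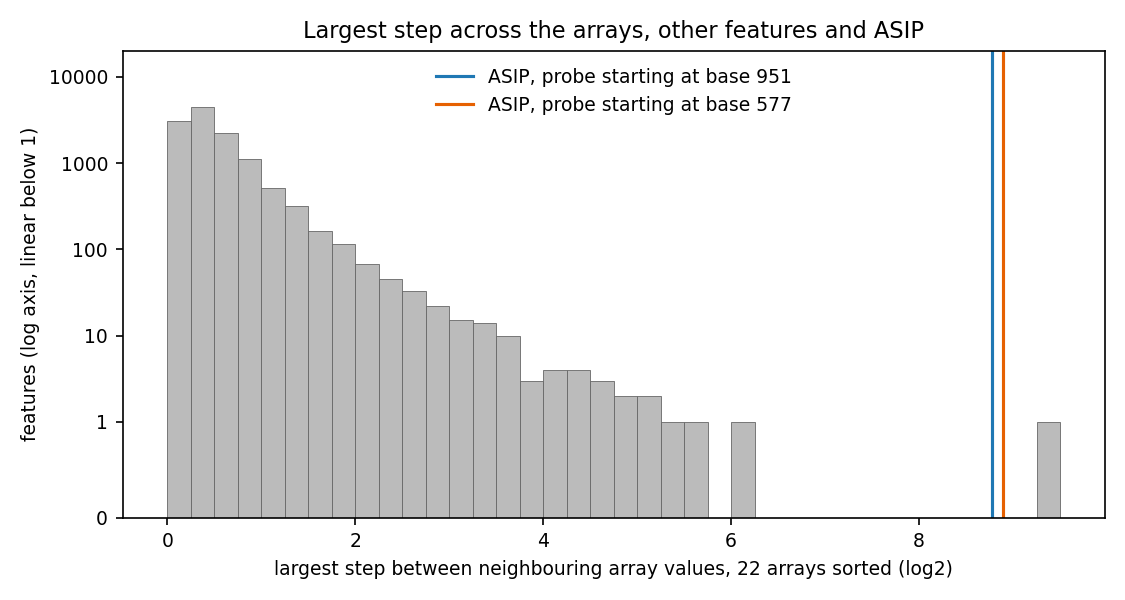
Distribution of the largest gap between sorted array values (log2) over 12248 other features, with the number of features on a log axis and the 2 ASIP probes marked at 8.77 and 8.89. Most features have a gap under 1 (median 0.40), and 6 exceed 5.

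The next features by gap, chosen after their values were seen, divided the animals differently. L08792, a sheep MHC class II sequence, had a gap of 6.08, with lamb 2 alone low at -7.74. EE753573 had a gap of 5.63: 6 lambs on slides 5 and 7 were at -6.52 to -4.86, and lambs 4 and 5 on slide 6 were at 1.03 and 0.77, beside fetuses at 0.92 to 1.86. FE028749 had a gap of 5.40, with 9 arrays of all 3 groups on the low side, lambs 3 and 8 among them. EE835180 had a gap of 5.09, with the same 6 lambs low as for EE753573, including lamb 3 at -6.37 and lamb 8 at -6.15. EE769396 had a gap of 5.00, with lamb 8 alone low at -6.75.

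Few other features set lambs 3 and 8 alone below their largest gap. In 15 other features the largest gap also set these 2 lambs below the other 20 arrays, and the widest of those gaps was 1.12, in the unnamed transcript TC10994, where lamb 3 was at -5.88 and lamb 8 at -6.99. They were the lowest 2 of all 22 arrays in 157 of the 12248 other features, or 1.28%, and the lowest 2 of the 8 lambs in 642, or 5.24%. These counts cover only features in which both lambs were low, and are a description of the arrays.

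Features were also ordered by how closely their ranks followed ASIP within each group, as the mean absolute difference in rank from the brighter ASIP probe over the 22 arrays, so that 0 is the same order in all 3 groups. The median of 12248 features was 2.45. The dimmer ASIP probe was at 1.00, and EE806560 and EE828877, both unnamed and dim, had the same distance, followed by EE826340 at 1.09. With normexp background correction these 3 unnamed features were farther away, with EE806560 at 2.36, EE828877 at 2.45 and EE826340 at 2.18. When all 22 arrays were ranked together, which also counts differences between groups, the dimmer ASIP probe was at 1.91. In that ranking the closest other feature was at 2.45 and the median feature at 7.18.

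Of 733 other features with a gene symbol, the closest in order were CLMP at 1.18, CLC4 at 1.36, IRF1 at 1.36, CKB at 1.45 and IGF-IIR at 1.45. CLMP is a cell adhesion protein, IRF1 a transcription factor of the interferon response, CKB the brain form of creatine kinase and IGF-IIR a receptor that clears insulin-like growth factor II. None of them had the ASIP step. IRF1 was at -2.07 in lamb 3 and -3.75 in lamb 8 with the other lambs at -2.55 to -1.54, and CKB was at 2.67 and 1.55 with the others at 2.63 to 4.06. For CLMP, CLC4 and IRF1 the likeness depended on the scaling. With normexp background correction CLMP and CLC4 were at 2.27 each and IRF1 at 2.00. The median of all features on the percentile scale was 2.45.

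**Figure D4:**
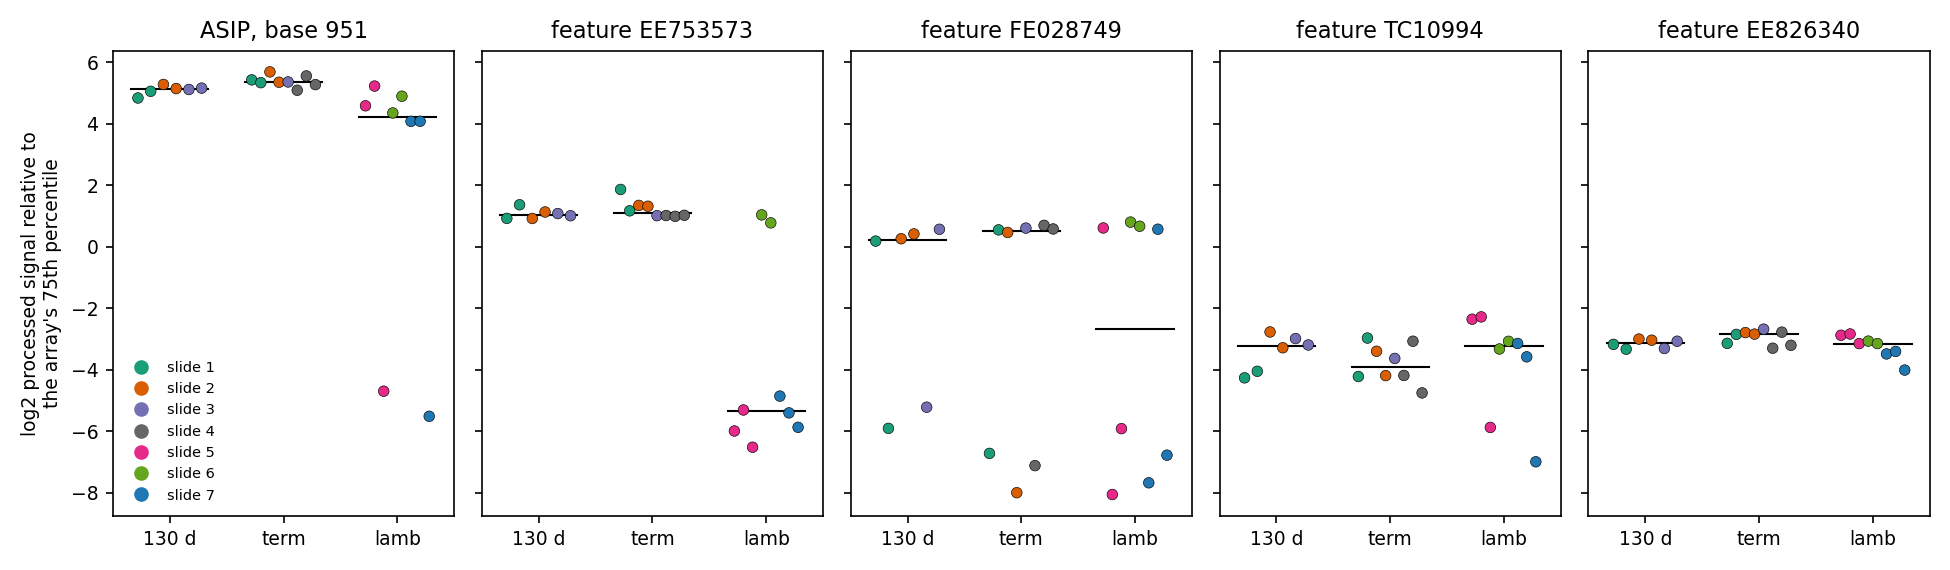
Log2 processed signal minus the 75th percentile of the array, on each of the 22 arrays by group, for the brighter ASIP probe, EE753573, FE028749, TC10994 and EE826340, with points coloured by slide and the group median as a line. Lambs 3 and 8 are the low points of ASIP (-4.70 and -5.51) and of TC10994 (-5.88 and -6.99), where the gap to the other arrays is 1.12; EE753573 is low in 6 lambs, FE028749 in 9 arrays of all groups, and EE826340 has no such step.

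Other genes of melanocortin signalling were read from lists of ligands and receptors, cyclic AMP effectors, pigment genes and genes near ASIP. Calls between groups were taken from a limma fit over all 22 arrays with Benjamini-Hochberg adjustment over 12249 features, at an adjusted p under 0.05. Of all features tested, 9.18% were called between term and 130 days (4.25% higher and 4.93% lower at term). That is 1124 features, and 671, 642 and 723 without fetus 1, 3 or 4 at 130 days. Between lambs and term 42.1% were called (17.3% higher and 24.7% lower in lambs), and between lambs and 130 days 40.6% (15.8% higher and 24.8% lower), so a call in lambs alone marks a gene out little. Of these calls, 46.3%, 41.2% and 39.0% were higher in the later group, and with normexp 56.5%, 58.3% and 73.7% were. In the 2 lamb comparisons the share was 52.3% and 52.5% with quantile scaling and 51.9% and 54.3% in the authors' values.

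Few genes of these lists have a named probe on this array. Of 16 melanocortin ligands, processing enzymes, receptors and antagonists, 5 were on it and 2, POMC and CPE, were bright enough to be tested. The receptors MC2R and MC5R and the agouti-related peptide AGRP, the close relative of ASIP, were well above background on at most 1 array of any group. The probe that the files label MC1R carries an accession that RefSeq now gives to MC5R, so MC1R, the receptor of ASIP in melanocytes, was not measured here. Neither gene passed the threshold between 130 days and term, although CPE did in 11 alternative settings, and in lambs against term 1 was called higher and 1 lower, with a median difference of -0.06 log2 beside -0.02 over all features.

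POMC, the precursor of alpha-melanocyte-stimulating hormone and of corticotropin, had a level of -0.58, 0.01 and 2.45 at 130 days (lowest, median and highest, log2), -0.80, -0.08 and 1.08 at term, and -1.88, -1.14 and -0.90 in lambs. The 8 lambs lay below all 14 fetuses, with the highest lamb at -0.90 and the lowest fetus at -0.80. How many other features divide lambs from fetuses in this way was not counted. POMC was 1.24 log2 lower in lambs than at term (difference -1.24 ± 0.33, SE, limma adjusted p = 0.00486) and differed from 130 days by -1.59 ± 0.36 (adjusted p = 0.00133). With scan date as a random block the adjusted p was 0.350 against term and 0.203 against 130 days. The dim ASIP lambs 3 and 8 had POMC levels of -0.90 and -1.11, the former the highest of the lambs.

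CPE, carboxypeptidase E, which trims POMC peptides, was at a median of -0.23 at 130 days, -1.32 at term and 0.00 in lambs, with overlapping groups. It was higher in lambs than at term by 1.13 ± 0.28 log2 (SE, limma adjusted p = 0.00251), and that call was lost once scan date was a random block (adjusted p = 0.258). The difference between term and 130 days was -0.87 ± 0.30 (adjusted p = 0.0724), and it passed the threshold when fetal arrays were fitted alone (adjusted p = 0.0239). It also passed without fetus 6 at 130 days (-1.05, adjusted p = 0.0360) and without lamb 4 or 8 (-0.87, adjusted p = 0.0405 and 0.0459).

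Of 19 genes of the cyclic AMP and protein kinase A path that acts below melanocortin receptors, 3 were on the array and tested. None of the 3 was called between term and 130 days, and PRKACA and CREM were called higher in lambs than at either fetal age. With scan date as a random block, which estimates the correlation within a date, 1 of these 4 calls was left, that of PRKACA against 130 days (adjusted p = 0.0369, limma), and the others had adjusted p = 0.0943, 0.0886 and 0.445. Their median difference was 0.18 log2 between term and 130 days, 0.70 between lambs and term and 0.46 between lambs and 130 days, beside medians of -0.01, -0.02 and -0.08 over all features. PRKACA, the catalytic subunit of protein kinase A, had a median of -2.54 at 130 days, -2.32 at term and -1.69 in lambs. It was 0.70 ± 0.14 log2 higher in lambs than at term (SE, limma adjusted p = 0.000354).

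CREM, a transcription factor that answers cyclic AMP, had a median of -3.45 at 130 days, -3.89 at term and -2.95 in lambs. It was higher in lambs than at term by 0.87 ± 0.15 log2 (SE, limma adjusted p = 7.3e-05). Against 130 days the difference was 0.46 ± 0.16 (adjusted p = 0.0262), which no longer passed with scan date or slide as a random block (adjusted p = 0.445 and 0.0864), without lambs 3 and 8 (adjusted p = 0.0558) or without slide 7 (adjusted p = 0.120). It also no longer passed without fetus 2, 4 or 6 at 130 days, with differences of 0.35 to 0.44 log2. Without fetus 2 at 130 days CREM was lower at term than at 130 days (-0.52, adjusted p = 0.0354). PRKAR1A, a regulatory subunit of protein kinase A, did not pass in any of the 3 comparisons (adjusted p = 0.308 for term against 130 days, 0.716 for lambs against term and 0.341 for lambs against 130 days), and passed against 130 days without slide 7 (0.27, adjusted p = 0.0435).

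Of 17 pigment cell genes, 3 were on the array and 2 were tested, with 1 called lower in lambs in both lamb comparisons. TYR, tyrosinase, the rate-limiting enzyme of melanin synthesis, was dim, with medians of -5.30 at 130 days, -4.85 at term and -6.59 in lambs, and was well above background on 6 of 6, 8 of 8 and 2 of 8 arrays. Its difference between lambs and term was -1.77 ± 0.22 log2 (SE, limma adjusted p = 1.56e-06). With normexp background correction that difference turned to 0.09 (adjusted p = 0.828), and that from 130 days turned from -1.33 ± 0.23 (adjusted p = 0.000118) to 0.67 (adjusted p = 0.0837). The call against 130 days was also lost with scan date as a random block (-1.29, adjusted p = 0.0773) and in the authors' values (-0.17, adjusted p = 0.0978). KIT, the receptor of melanoblasts and mast cells, was well above background on 0 of 6, 1 of 8 and 2 of 8 arrays, and its ligand KITLG did not pass in any of the 3 comparisons (differences 0.06 ± 0.29 between term and 130 days, 0.57 ± 0.27 between lambs and term and 0.63 ± 0.29 between lambs and 130 days, log2, SE). Without lamb 1, 4 or 5, KITLG passed in both lamb comparisons, with differences of 0.69 to 0.74 against term and 0.75 to 0.80 against 130 days. It also passed in both with array weights (0.93, adjusted p = 0.00101, and 1.02, adjusted p = 0.000724). Against 130 days it passed with normexp (0.76, adjusted p = 0.0192), quantile scaling (0.78, adjusted p = 0.0344) and in the authors' values (0.56, adjusted p = 0.0366), while with scan date as a random block the adjusted p was 0.576 and 0.511.

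In the dim ASIP lambs KITLG was at -1.82 in lamb 3 and -0.94 in lamb 8, inside the range of the 8 lambs (-3.01 to -0.74). TYR was not well above background in either of them, so its level there gives only a bound and was not set beside ASIP.

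Of the 15 annotated genes on each side of ASIP in the RefSeq order, 1 of 30 could be found on the array by name, ACSS2, the 12th gene after ASIP, which makes acetyl-CoA from acetate. No probe was found under the names AHCY, ITCH, EIF2S2 or RALY, so they are not analysed here. ACSS2 was at -2.05, -1.82 and -1.40 at 130 days (lowest, median and highest, log2), -1.77, -0.73 and -0.27 at term, and -0.92, 0.70 and 1.48 in lambs. It was called higher in each later group: by 0.96 ± 0.27 log2 at term over 130 days (SE, limma adjusted p = 0.0293) and by 1.36 ± 0.25 in lambs over term (adjusted p = 0.000182, and 0.109 with scan date as a random block). Lambs differed from 130 days by 2.32 ± 0.27 (adjusted p = 1.89e-06, and 0.0112 with that block). The first of these calls ended with normexp background correction (0.86, adjusted p = 0.0504) and without fetus 3, 4, 5 or 6 at 130 days or fetus 1 or 3 at term, with differences of 0.88 to 1.00 log2.

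ACSS2 did not follow ASIP from lamb to lamb. It was at 0.67 in lamb 3, near the lamb median of 0.70, and at -0.92 in lamb 8, the lowest lamb, where the other 6 lambs were at 0.26 to 1.48.

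**Figure D5:**
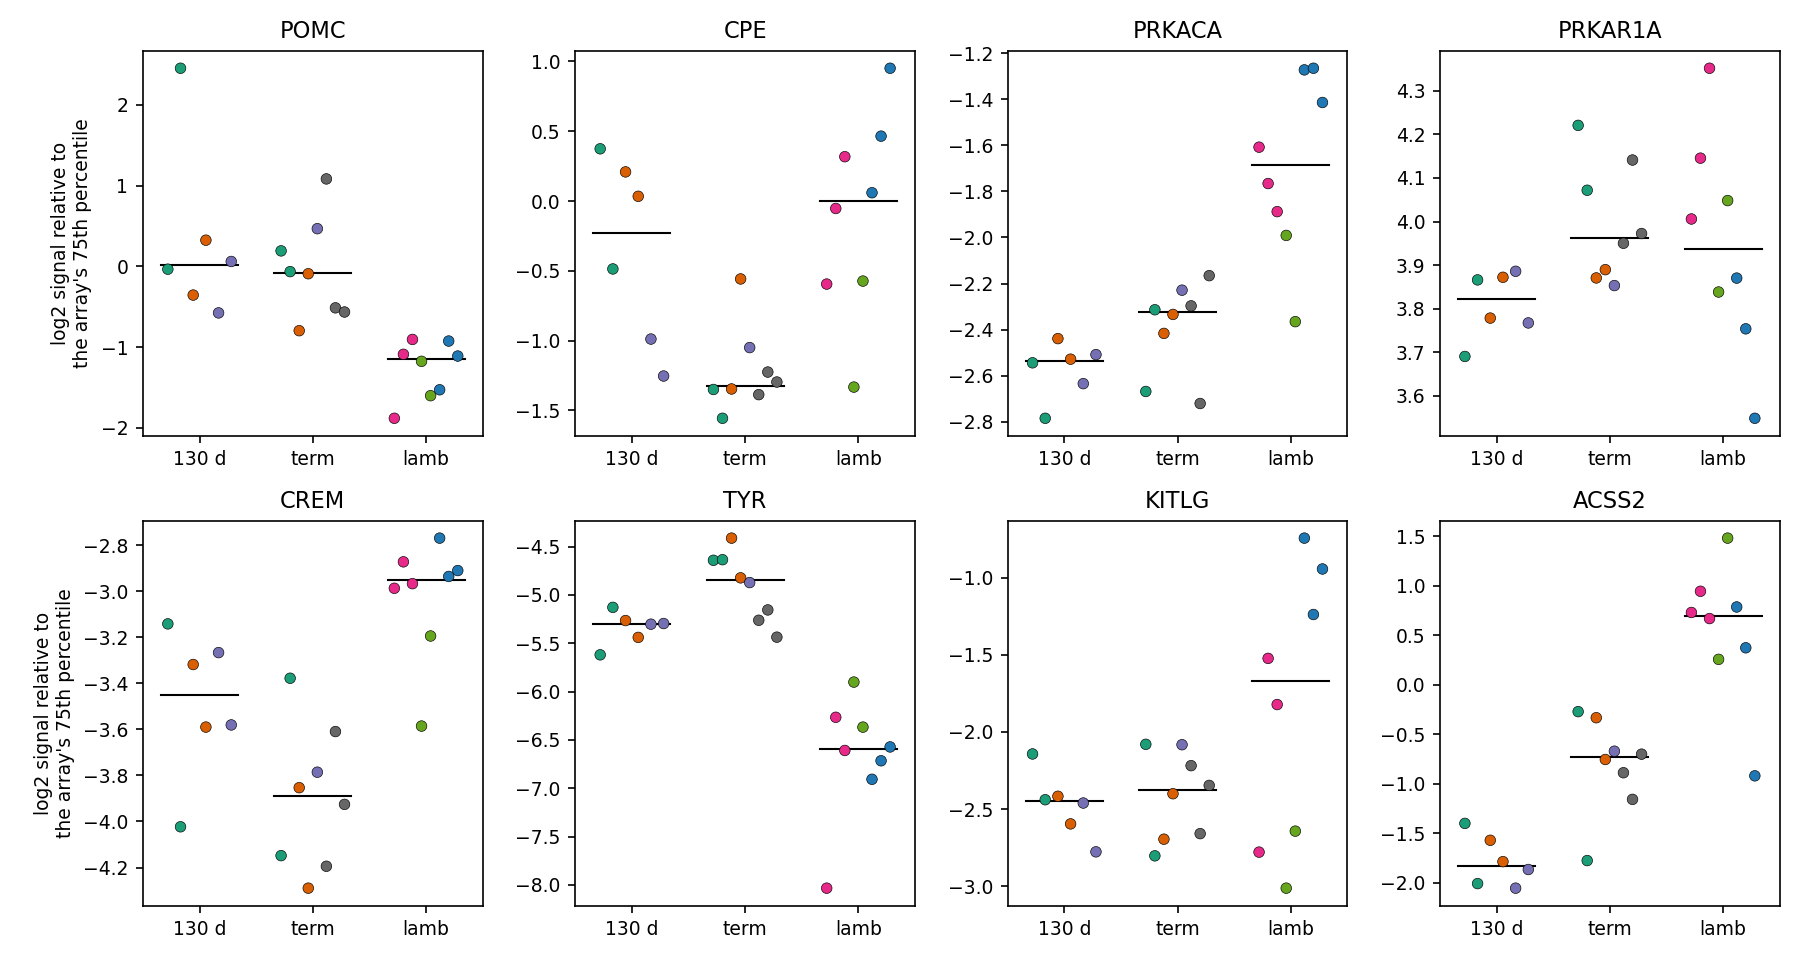
Log2 signal relative to the 75th percentile on each of the 22 arrays by group, for POMC, CPE, PRKACA, PRKAR1A, CREM, TYR, KITLG and ACSS2, each on an axis of its own. Points are coloured by slide (lambs on slide 5 in pink, slide 6 in light green, slide 7 in blue) and lines are group medians. All 8 lambs lie below the 14 fetuses for POMC, and for TYR on this scale, though the TYR difference turns with normexp background correction (0.09 against term). How many other features divide the groups in this way was not counted.

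The tissue label was checked with heart muscle markers, of which 1 of 18, MB (myoglobin, the oxygen store of muscle), could be named on the array. MB was bright on all 22 arrays, with medians of 7.99 at 130 days, 8.56 at term and 8.66 in lambs, and it was 8.84 in lamb 3 and 8.61 in lamb 8. Both dim ASIP arrays therefore had the myoglobin level of the other lambs (8.34 to 8.84).

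Lists of markers of other cell types were set beside ASIP in the same way, as the mean log2 level of the list. Fat cell markers, with 9 of 15 genes tested, had a mean of -3.16 in lamb 3 and -2.89 in lamb 8, above the other 6 lambs (-3.60 to -3.21), while 12 of the 14 fetuses, all bright for ASIP, were at -3.47 to -1.90. The other two fetuses had no mean because a spot of the list was dropped as an outlier. The 9 genes did not move as one: 3 of them (LEP, FASN and UCP1) were above the lamb median in both dim lambs, none was below it in both, and the other 6 differed in side between the 2 lambs. UCP1 was at -5.90 in lamb 3 and -3.42 in lamb 8, above a lamb median of -7.46. It was well above background on 3 of 6, 3 of 8 and 1 of 8 arrays. The list means thus rest in part on a gene that most lambs did not show well above background. LPL, lipoprotein lipase, was at 2.35 in lamb 3, the lowest of the lambs, and ADRB3, an adrenergic receptor of fat, was at -4.81 in lamb 8, also the lowest. PLIN1, the lipid droplet coat protein, was at -1.71 and -2.32 around a lamb median of -2.26, and FABP4, the fat cell fatty acid carrier, was at -7.08 and -5.93 around -6.06 and was well above background on 4 of 6, 3 of 8 and 4 of 8 arrays. Fibroblast, endothelial, smooth muscle, leukocyte, red cell and nerve lists did not put both lambs outside the other 6 on the same side. Genes tested were 2 of 10 for fibroblasts, 4 of 9 for endothelium, 1 of 7 for smooth muscle and 9 of 15 for leukocytes. They were 2 of 9 for red cells and 1 of 8 for nerve, so the smooth muscle and nerve lists were 1 gene each. The part of any cell type in the ASIP levels was not tested.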

How the data were processed

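Heart septum RNA of 22 animals was hybridised to one-colour Agilent arrays. Per the file headers, Agilent Feature Extraction 10.1.1.1 made the deposited intensity values (raw, local background and background-subtracted, detrended processed signal), the spot flags and the p-value of each spot against its background. The authors' deposited table holds log2 values; the submitters' processing notes list limma, and the scaling is not given in the sources used here.

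ASIP and the gene lists were chosen with earlier results of these data known. Outlier-flagged spots (2 to 18 per array) were dropped, log2 of the processed signal was taken relative to each array's 75th percentile, and spots of a probe were averaged. A gene was represented by its brightest probe. Features well above background on at least 0.5 of the arrays of a group were tested (12249 of 14353) with limma 3.58.1 in R 4.3.3, all 22 arrays and group only, with Benjamini-Hochberg adjustment at 0.05. Of 15008 probes, 1429 had 1 gene symbol, 8 several and the rest none; of 493 RefSeq accessions, 477 were found in RefSeq. The named genes were the ASIP probes, every measured gene of the melanocortin, cyclic AMP, pigment and nearby gene lists, the 15 genes on each side of ASIP, the 5 symbol-carrying and 3 other features closest in order, and heart markers. Arrays limit precision by their number. In simulated data for term against 130 days, 74% of 200 genes changed by 1 log2 among 12249 were recovered, with 5.13% false calls. The simulated noise was independent for each gene and array, with no slide or scan date effect. These shares therefore do not give the false-call rate of the real arrays. Array correlations were 0.900 to 0.989, so none was taken as a duplicate. Alternatives were normexp (offset 50), quantile scaling, outliers kept, the authors' values, no filter, array weights, slide, scan date or replicate blocks, fetal arrays only, each array left out and, chosen after seeing the data, lambs 3 and 8 or slide 7 left out.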

Additional observations from a re-analysis of the deposited data

Results flagged for a closer look

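In 3 of 42 groups of arrays checked over the ASIP probes and the named genes of its pathway, 1 animal lay far from the others for the size of its group; chance alone gives about 1 in 20. POMC was at 2.45 log2 relative to the 75th percentile in fetus 2 at 130 days, with the next highest at 0.32. KIT was at -9.21 in the same fetus, with the next lowest at -8.02, and it was not well above background there. TYR was at -8.03 in lamb 1, with the next lowest at -6.91, and it was not well above background there. The check compares 1 animal with its nearest neighbour, so it could not flag the 2 dim ASIP arrays, which lie beside each other. It therefore says nothing about ASIP in the lambs.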

How the results depend on the processing

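Lambs 3 and 8 stayed below the other 20 arrays for both ASIP probes with normexp (gaps of 6.36 and 4.71 log2), quantile scaling (8.62 and 10.23), outlier spots kept (8.77 and 8.89) and the authors' values (7.05 and 5.88). The ASIP median at term was 5.17 with normexp and 4.32 in the authors' values, and at 130 days 4.26 in the authors' values; with each array left out in turn the lamb median was 4.08 to 4.35, the term median 5.35 to 5.36 and the 130-day median 5.11 to 5.14. The likeness of the ASIP probes was 1.91 with all 22 arrays ranked together and 0.857 to 1.05 with each array left out.

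The 1124 features called between term and 130 days became 460 with normexp, 1703 with scan date as a random block, 3210 with array weights, 2421 with fetal arrays only and 2245 with fetal arrays and slide as a block. Leaving out each array gave 642 to 1407, with 642, 671 and 723 without fetus 3, 1 or 4 at 130 days. The 5151 between lambs and term became 2840 with normexp and 977 with scan date as a random block, and the 4973 between lambs and 130 days became 946 with scan date. Without lambs 3 and 8 the counts were 1432, 5675 and 5295. The causes were not tested.

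Replicate numbers did not pair the animals (1 of 20 correlations between same-numbered animals over 0.1); with a replicate block the counts were 742, 4903 and 4458, and the call of CREM between lambs and 130 days ended (adjusted p = 0.0708, limma).

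The sign of a difference turned in these cases, none of them past the threshold after turning. POMC, term against 130 days, was -0.526 to 0.0802 with each array left out, positive without fetus 2 at 130 days. KITLG, term against 130 days, was -0.0477 with the replicate block. PRKAR1A, lambs against term, was 0.0223 with quantile scaling, 0.0035 with array weights, 0.0817 without slide 7 and -0.109 to 0.0057 with each array left out, positive without lamb 8. Against 130 days it was -0.0042 with normexp and -0.0955 in the authors' values. With normexp TYR was 0.0887 against term and 0.669 against 130 days. CPE, lambs against 130 days, was -0.0953 without slide 7.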
